A study of Hydra viridissima with 2 samples.

Results

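Of 34573 gene models of the green hydra Hydra viridissima, 9486 had a mean level of at least 10 CPM (counts per 1000000 counted read pairs), and 52 of these were at least halved in polyps that carried algae. The 52 genes were chosen by the values themselves. A gene was taken when log2((symbiotic CPM + 0.5)/(aposymbiotic CPM + 0.5)) was at or below -1, so its ratio is a description and carries no test. They made up 0.548% of the expressed genes. By the mirrored rule, 13 genes, 0.137%, were at least doubled. The same contrast chose the genes, so nothing is read from these shares.

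Green hydra is a freshwater polyp that holds Chlorella algae within cells of its gastrodermis, the inner epithelium. The alga passes sugar to the animal, and the animal supplies nutrients and shelter. Polyps can live without the alga when they are fed, and such animals are called aposymbiotic.

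The libraries were made from whole, large polyps of clone 2, and each pooled RNA of about 200 animals. One group was aposymbiotic and the other symbiotic, with 1 library each. Both cultures were kept at 24 °C, given newly hatched brine shrimp 3 to 4 times a week and collected 2 to 3 days after a meal, and the RNA integrity number was 10. The sources used here do not say how the aposymbiotic polyps lost their algae, and both groups being of 1 clone limits what they stand for.

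The aposymbiotic library held 5533508 counted read pairs and the symbiotic library 6905650. The 9486 expressed models lay on 31 of the 105 scaffolds, and their median log2 ratio was -0.01. With 1 library per group there was no replicate check. Every difference is one between these 2 libraries, and the 95% intervals given with fold values (exact, Clopper-Pearson) cover counting error only. The files do not pair identifiers with gene names, so no gene's function could be stated and the label of whole polyps could not be set against cell type markers. Genes are therefore described by position, exon structure and level, with coordinates as in the deposited table.

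Together the 52 genes held 58925 counts, 1.06% of the aposymbiotic total (95% interval 1.06 to 1.07). In the symbiotic library they held 23305 counts, 0.337% of the total (0.333 to 0.342). In this bulk RNA, fewer cells of a type and less RNA per cell cannot be told apart. The symbiotic level was lower by 2.02-fold to 12.3-fold, with a median of 2.52-fold and a median log2 ratio of -1.31. Many differences were moderate: 24 genes were under 2.5-fold, 15 reached 3-fold and 6 reached 4-fold. The counting intervals of all 52 genes lay above equality, the lowest bound being 1.45-fold. The limits on level and ratio fix this at these depths, so it adds no support. The interval reached below 2-fold for 25 genes, and the other 27, 0.285% of expressed genes, were lower by at least 2-fold at both bounds. The smallest count behind a gene was 82 without algae and 14 with algae.

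**Figure D1:**
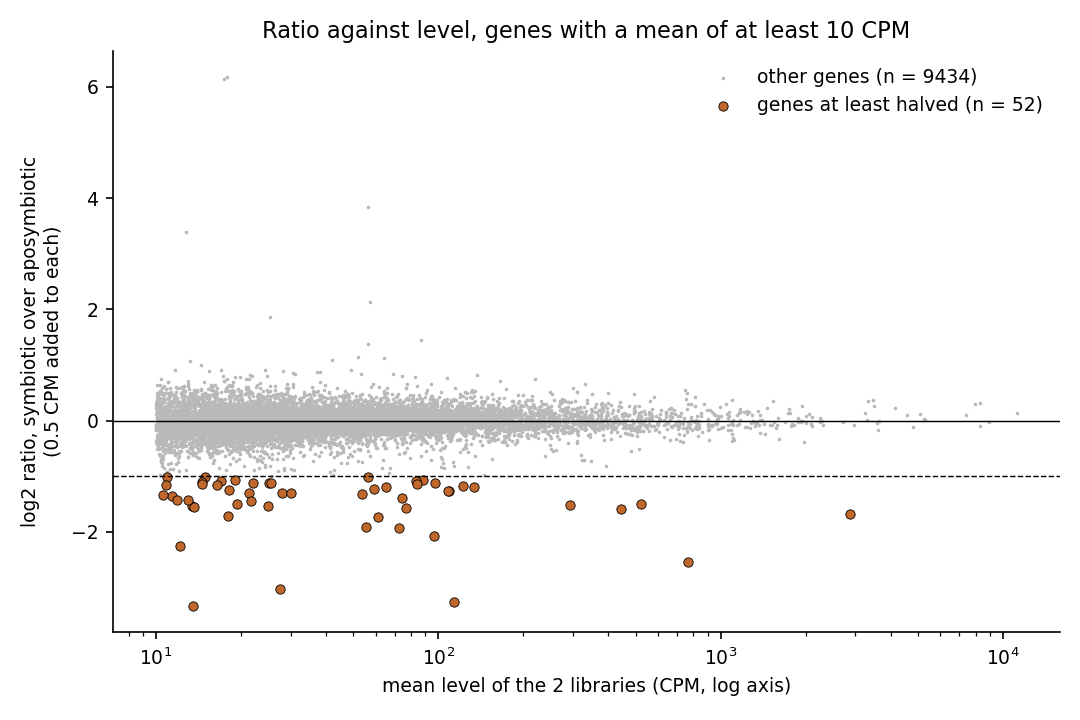
Each point is 1 gene with a mean of at least 10 CPM, with the mean level of the 2 libraries on a log axis and the log2 ratio, symbiotic over aposymbiotic, on the other axis. The 52 genes at or below -1 (dashed line, orange) spread over the range of levels, from 10.6 to 2874 mean CPM, while the grey cloud is centred at -0.01.

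A single gene carried much of the group's RNA. It was cHydvir-v1B3C1_g9548, a 9-exon model of 1938 coding nt on the minus strand of scaffold 12, 11254353 to 11257979. It had 24239 counts (4380.4 CPM) in the aposymbiotic library and 9442 counts (1367 CPM) in the symbiotic library, a 3.20-fold difference (3.13 to 3.28). These counts were 41.1% of all counts on the 52 genes in the aposymbiotic library and 40.5% in the symbiotic library, so the gene kept almost the same share of the group in both. Per kb of coding length its level went from 2260.3 to 706 CPM per kb. The model before it in gene order had 395 and 501 counts, a log2 ratio of 0.02, and the one after it had 133 and 119 counts at -0.47, 1.39-fold lower (1.08 to 1.8).

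The second by mean level was cHydvir-v1B3C1_g27168 on scaffold 6, 7317527 to 7328623, plus strand. Its 11097 coding nt form 1 block once its 3 exon rows, which have alternative boundaries, are merged. This is the longest exon among the 52 genes, and the gene is counted as a single exon on that basis. It had 7239 counts (1308 CPM) without algae and 1556 counts (225 CPM) with them, 5.81-fold lower (5.50 to 6.14). The next model on the same strand begins 395 bp further on, at 7329019 to 7330005, and is a single exon of 987 nt. That neighbour had 1140 counts against 145, or 206 against 21.0 CPM, and was 9.81-fold lower (8.25 to 11.7). Per length the pair sat at 118 and 209 CPM per kb without algae and at 20.3 and 21.3 CPM per kb with algae. The model 2035 bp after them, on the other strand, had 104 and 127 counts at a log2 ratio of -0.03. The one before them had 2 counts in each library, too few to read.

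A further adjacent pair lies on the minus strand of scaffold 5, 76 bp apart. The larger gene, 15460735 to 15477961, has 14 exons and 2496 coding nt. It had 3684 counts (666 CPM) in the aposymbiotic and 1531 counts (222 CPM) in the symbiotic library, a 3.00-fold difference (2.83 to 3.19). Its partner at 15458483 to 15460658 has 6 exons and 1122 nt, and had 856 counts against 444 (155 against 64.3 CPM), 2.41-fold lower (2.14 to 2.7). The model before the pair had 356 and 490 counts, a log2 ratio of 0.14, and the next expressed model after it was at -0.03. These 4 genes in 2 pairs were the only ones of the 52 directly next to another of the set in gene order.

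Of the 1992 genes with a mean of 100 CPM or more, 10 belonged to the set, 0.502%. On scaffold 5, the 4-exon gene of 1368 nt at 18713831 to 18717765 had 4272 counts (772 CPM) against 1897 (275 CPM), 2.81-fold lower (2.66 to 2.97). It stands by itself, 35864 bp and 35945 bp from the nearest models. On scaffold 8, a 2-exon gene of 3354 nt at 17411827 to 17415633 had 2400 counts (434 CPM) against 1042 (151 CPM), 2.87-fold lower (2.67 to 3.09). Nearly all of its coding length, 3277 nt, lies in one exon. On scaffold 4, the gene at 7979687 to 8015738 (13 exons, 4452 nt) had 1034 counts (187 CPM) against 560 (81.1 CPM), 2.30-fold lower (2.08 to 2.56). On scaffold 13, the gene at 4100039 to 4108407 (3 exons, 7746 nt) had 939 counts (170 CPM) against 518 (75 CPM), 2.26-fold lower (2.03 to 2.52). The single-exon gene of 5472 nt at 2832512 to 2837983 of the same scaffold had 849 counts (153 CPM) against 438 (63.4 CPM), 2.42-fold lower (2.15 to 2.72).

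The genes with the strongest differences ranged from low to high level. The scaffold 1 gene at 27361784 had a mean of 12.2 CPM, and the scaffold 6 gene at 7317527 had 767 CPM. The lowest ratio belonged to the gene at 14461854 to 14462905 of scaffold 4 (3 exons, 282 nt). It had 138 counts (24.9 CPM) without and 14 counts (2.03 CPM) with algae, 12.3-fold lower (7.09 to 23.1). The 26-exon model 3414 bp beyond it had 432 and 459 counts, a log2 ratio of -0.23. On scaffold 5, a single-exon gene of 510 nt at 18033335 to 18033844 had 274 counts (49.5 CPM) against 39 (5.65 CPM), 8.77-fold lower (6.25 to 12.6). On scaffold 9, a 9-exon gene of 1551 nt spread over 36678 bp at 745585 to 782262 had 867 counts (157 CPM) against 253 (36.6 CPM), 4.28-fold lower (3.71 to 4.94). On scaffold 13, a 13-exon gene of 1059 nt at 7228960 to 7236527, whose longest exon is only 132 nt, had 640 counts (116 CPM) against 206 (29.8 CPM), 3.88-fold lower (3.31 to 4.56). Both of its direct neighbours were well counted and near equality, with 1756 and 2217 counts at a log2 ratio of 0.02 and 642 and 825 counts at 0.04. On scaffold 5, the 8-exon gene of 1410 nt at 14254225 to 14258314 had 522 counts (94.3 CPM) against 193 (27.9 CPM), 3.38-fold lower (2.86 to 4.00).

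**Figure D2:**
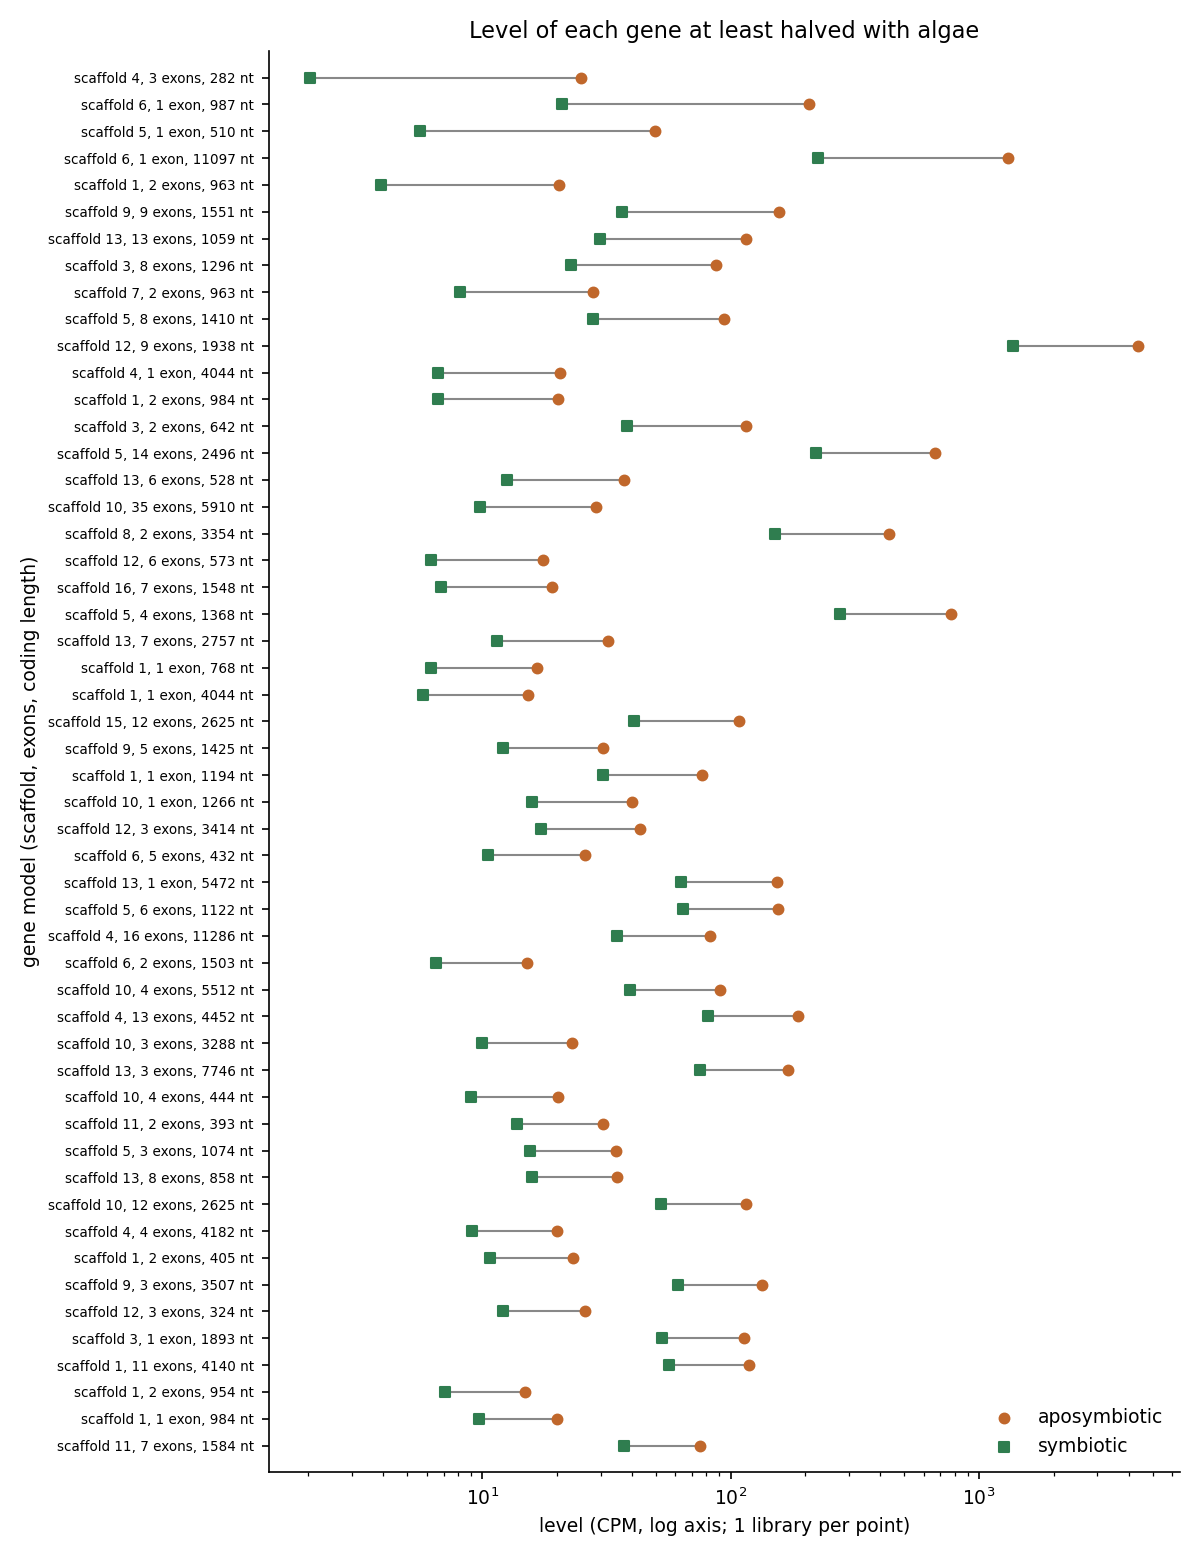
Level of each of the 52 genes in CPM on a log axis, aposymbiotic (circles) and symbiotic (squares), 1 library per point, ordered by fold from 12.3-fold at the top to 2.02-fold at the bottom. Every square lies left of its circle by the choice of genes, and the rows are named by scaffold, exon number and coding length.

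In structure, the halved genes had few exons and long ones. Their median was 3 exons against 8 over all 9486 expressed genes, while median coding length was close, 1417.5 against 1506 nt. Coding length per exon was accordingly 367 nt at the median against 176 nt, and total intron length 1076 bp against 4285.5 bp. Single-exon models were 11 of the 52 (21.2%) against 9.85% of expressed genes, and models of 1 to 3 exons were 27 (51.9%) against 24.4%. At the other end, 8 genes (15.4%) had 10 or more exons against 42.3%. Genes of 4 to 9 exons were 17 (32.7%) against 33.3%. Exon number also varied with level among all genes, so the share was taken within bands of mean level. At 10 to 20 CPM, 68.4% of 19 halved genes had 1 to 3 exons against 43.8% of all genes in the band. At 20 to 100 CPM it was 39.1% of 23 against 21.0%, and at 100 CPM or more it was 5 of 10 genes, 50%, against 10.5%. The rule did not name structure, but it used CPM, which is not scaled by coding length. These are counts beside a background, with no test.

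Long genes in few exons made up a distinct share of the set. Coding lengths of at least 3000 nt in at most 4 exons were found for 11 of the 52 genes (21.2%) and for 175 of all expressed genes (1.84%), a class drawn after the values had been seen. An exon of at least 3000 nt was present in 9 (17.3%) against 2.22%, and 4 genes (7.69%) were single exons of that length against 0.380%. The scaffold 6, scaffold 8 and scaffold 13 genes described above account for 4 of the 11. The other 7 are as follows. On scaffold 9, 14042995 to 14046796 (3 exons, 3507 nt) had 739 counts against 424, and on scaffold 10, 13834758 to 13846207 (4 exons, 5512 nt) had 503 against 272. On scaffold 12, 15329541 to 15333715 (3 exons, 3414 nt) had 238 counts against 119, and on scaffold 10, 17789627 to 17795955 (3 exons, 3288 nt) had 127 against 69. These 4 genes were between 2.18-fold and 2.5-fold lower with algae. On scaffold 4, 1511782 to 1516612 (4 exons, 4182 nt) had 111 counts against 63, 2.20-fold lower (1.60 to 3.05).

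The remaining 2 long genes had the same length. Both are single exons of 4044 nt on the minus strand, at 23078107 to 23082150 of scaffold 1 and 12339605 to 12343648 of scaffold 4. The first had 85 counts against 40, 2.65-fold lower (1.8 to 3.96), and the second 114 against 46, 3.09-fold lower (2.18 to 4.46). The annotation holds 4 single-exon models of exactly this length. The model on scaffold 11, 14842846 to 14846889, had 10 counts against 3, and the one on scaffold 6, 14693894 to 14697937, had 0 against 1, too few to place. Read pairs with several alignments were not counted, so where copies of a gene are nearly identical the counts rest on the bases in which they differ. The sequences needed to see whether these models are copies were not used here.

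**Figure D3:**
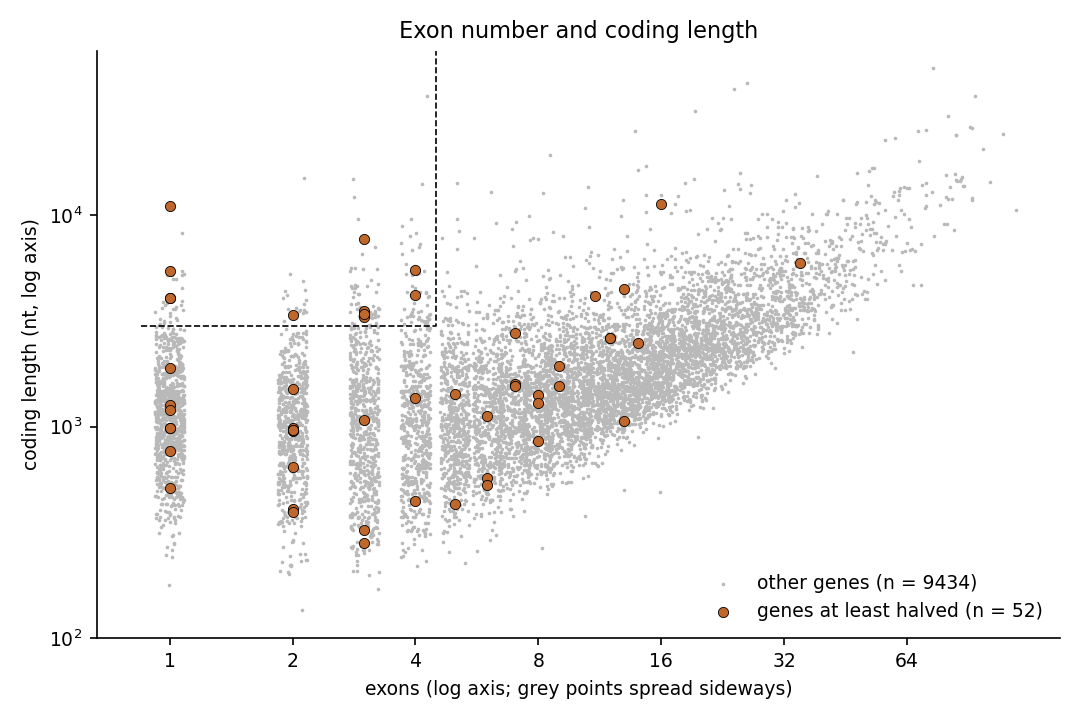
Coding length in nt against exon number, both on log axes, for the 52 halved genes (orange) and the other 9434 expressed genes (grey, spread sideways for legibility). The dashed lines enclose at least 3000 nt in at most 4 exons, where 11 of the 52 genes lie against 1.84% of all expressed genes.

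A group of 4 genes of 2 exons had nearly the same structure, with both exon lengths within 5% of one another, a likeness looked for after the values were known. At 27173001 to 27174227 of scaffold 1 the exons are 418 and 566 nt, and the counts were 112 against 46, 3.04-fold lower (2.14 to 4.38). At 27340076 to 27343575 they are 412 and 542 nt, with 82 counts against 49, 2.09-fold lower (1.45 to 3.04). At 27361784 to 27362886 they are 412 and 551 nt, with 113 counts (20.4 CPM) against 27 (3.91 CPM), 5.22-fold lower (3.41 to 8.27). These 3 thus lie near one another on scaffold 1, and the other gene is on scaffold 7, 4279563 to 4280613. Its exons are 418 and 545 nt, and it had 154 counts (27.8 CPM) against 56 (8.11 CPM), 3.43-fold lower (2.51 to 4.75). The gene at 27173001 had 14 other models of like structure, and 3 of them were in the set. Of the 14, 10 had at least 10 counts over both libraries. Those of the 10 outside the set had log2 ratios from -0.24 to 0.76. The 2 others above 10 CPM were the scaffold 5 model at 16173115 to 16174306, with 59 and 73 counts at a log2 ratio of -0.01, and the scaffold 7 model at 2378005 to 2379070, with 54 and 81 counts at 0.25.

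The other single-exon genes varied in length and in surroundings. On scaffold 1, 2197662 to 2198855 (1194 nt) had 424 counts against 211, 2.51-fold lower (2.12 to 2.97), between 2 expressed neighbours at log2 ratios of 0.28 and 0.13. On scaffold 3, 13959337 to 13961229 (1893 nt) had 629 counts against 367, 2.14-fold lower (1.88 to 2.44). The 1266-nt model at 15834710 to 15835975 of scaffold 10 had 221 counts against 110 and lies wholly inside a 2-exon model of the same strand, 15831976 to 15835975, that had 142 and 182 counts, a log2 ratio of 0.04. Read pairs that overlap both models were not counted for either. The remaining 2 single-exon genes, at 1508895 to 1509662 (768 nt) and 18300721 to 18301704 (984 nt) of scaffold 1, had 92 counts against 43 and 111 against 67.

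Among the other genes of 2 or 3 exons, the best counted was on scaffold 3, 6887034 to 6887821 (2 exons, 642 nt). It had 639 counts (115 CPM) against 265 (38.4 CPM), 3.01-fold lower (2.60 to 3.49). On scaffold 11, 1504169 to 1509793 (2 exons, 393 nt) had 169 counts against 95, 2.22-fold lower (1.72 to 2.89), and on scaffold 1, 291393 to 292062 (2 exons, 405 nt) had 129 against 74, 2.18-fold lower (1.62 to 2.94). The 3-exon gene of 324 nt at 14981755 to 15005646 of scaffold 12 had 144 counts (26 CPM) against 84 (12.2 CPM), 2.14-fold lower (1.62 to 2.83). These last 3 are short genes, and coding lengths under 600 nt were 9 of the 52 (17.3%) against 9.09% of expressed genes.

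The genes were spread over the large scaffolds. They lay on 14 scaffolds, all among the 16 that hold the most models, and 26 of the 52 were on the plus strand. The share over all expressed genes was 0.548%. Scaffold 1 held 9 of its 1075 expressed genes (0.837%), scaffold 13 held 6 of 313 (1.92%) and scaffold 5 held 6 of 511 (1.17%). Scaffold 10 held 6 of 673 (0.892%) and scaffold 4 held 5 of 708 (0.706%). The lowest share above 0 was on scaffold 7, with 1 of 613 (0.163%). Scaffold 2 held none among 1133 and scaffold 14 none among 297, and whether shares differ between scaffolds was not tested. The median distance from a halved gene to the nearest other was 732 kb. A further one of the set lay within 50 kb of 8 genes and within 150 kb of 10, and 4 genes were alone on their scaffold.

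Most neighbours with enough counts to read did not share the difference. Of the 100 other models directly next to a halved gene, 53 had a mean of at least 1 CPM, and their median log2 ratio was 0.02 against -0.01 over all 16162 models at that level. Still, 10 of the 53 (18.9%) were at or below -0.5 against 8.50% of all. Above 10 CPM it was 3 of 33 neighbours (9.09%) against 2.90%. For 14 of the genes neither neighbour reached 1 CPM, so their surroundings could not be read.

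Runs of consecutive models at or below a log2 ratio of -0.8, each of at least 1 CPM, were listed after the values had been seen. Over the whole annotation 521 models met both limits, and 56 of them (10.7%) fell into 25 runs of 2 or more. Of these runs, 9 held a halved gene and 16 held none. The 9 took in 11 of the 52 genes (21.2%), against 10.7% of the 521 models. Of these 11 genes, 4 were those of the 2 adjacent pairs. Over all 9486 expressed genes, whatever their own ratio, 2.85% had a direct neighbour within both limits. The genes of the set are themselves below the limit by the way they were chosen. Besides both pairs above, the longest was a run of 5 models on scaffold 1 over 95.4 kb, 562597 to 657999, with 1549 counts against 994. Its halved gene, at 581804 to 604007, has 11 exons and 4140 nt, and had 659 counts (119 CPM) against 392 (56.8 CPM), 2.1-fold lower (1.85 to 2.38). The 9-exon neighbour 19605 bp beyond it had 805 counts against 568, a log2 ratio of -0.82, and the run's other 3 models were of 2.21 to 4.5 mean CPM. On scaffold 6, 3 models on the plus strand within 4.54 kb, 1165192 to 1169727, had 211 counts against 116 in all. The middle one, 1166691 to 1168299 (2 exons, 1503 nt), is of the set, with 84 counts (15.2 CPM) against 45 (6.52 CPM), 2.33-fold lower (1.60 to 3.42), and the next model begins 56 bp beyond it.

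The other stretches each joined 1 halved gene to 1 neighbour. The scaffold 3 gene at 6887034 was followed at 7930 bp by an opposite-strand model with a mean of 5.57 CPM and a log2 ratio of -1.63, and the scaffold 5 gene at 14254225 by a 4-exon model with 174 counts against 120. On scaffold 10, the long 4-exon gene at 13834758 followed a model with a mean of 2.95 CPM at -1.06. On scaffold 1, the gene at 1508895 followed one with 14 counts against 7. On scaffold 16, the 7-exon gene of 1548 nt at 5968153 to 5988126 had 106 counts (19.2 CPM) against 47 (6.81 CPM), 2.81-fold lower (1.98 to 4.06), and the model before it had 24 counts against 4. That neighbour, at 5952022 to 5955777, has 7 exons and 1551 nt, and 6 of the exon lengths are the same.

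**Figure D4:**
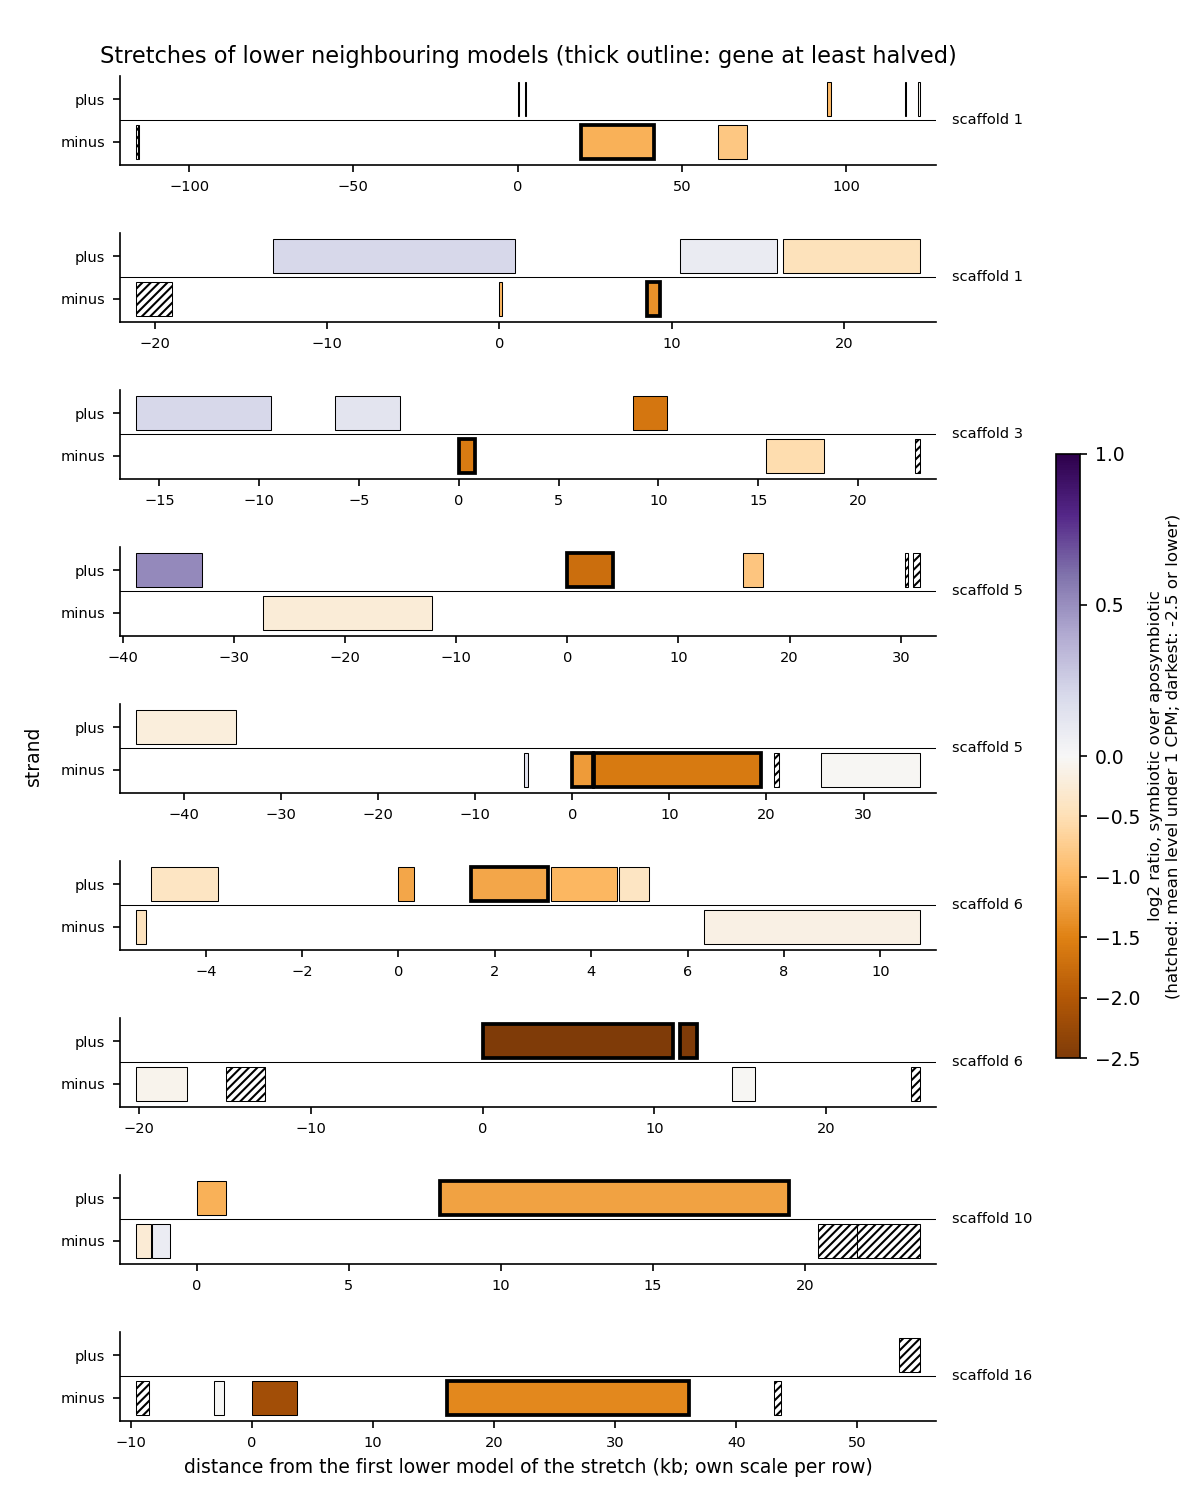
Maps of the 9 stretches in which consecutive models were at or below a log2 ratio of -0.8, with up to 2 models on either side, by strand, against the distance in kb from the first lower model. Colour gives the log2 ratio (darkest at -2.5 or lower), hatched models had under 1 CPM, and thick outlines mark the halved genes, which include 2 pairs that lie 76 and 395 bp apart.

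Several halved genes had a model elsewhere with the same exon lengths in the same order. Of the 32 genes with at least 3 exons, 4 (12.5%) had one, against 7.51% of the 7880 such expressed genes. The clearest case joined 2 genes of the set, at 5830641 to 5842380 of scaffold 10 and 8258026 to 8268026 of scaffold 15. Both have 12 exons and 2625 coding nt, all 12 exon lengths are the same, and they lie on opposite strands. The scaffold 10 gene had 638 counts (115 CPM) against 362 (52.4 CPM), 2.20-fold lower (1.93 to 2.51). The scaffold 15 gene had 597 counts (108 CPM) against 282 (40.8 CPM), 2.64-fold lower (2.29 to 3.05). As read pairs with several alignments were not counted, the limit given for nearly identical copies holds here too. The sequences of the 2 genes were not compared.

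The surrounding models were matched too, but none of those expressed was halved. Within 500 kb of the scaffold 10 gene, 35 of 44 models with at least 4 exons had a match in exon lengths on scaffold 15, all 35 on the opposite strand. The 24 of them that were expressed had log2 ratios from -0.47 to 0.28, with a median of -0.09, and their 26 expressed matches ran from -0.55 to 0.31. Genes that share some of the pair's exon lengths had log2 ratios from -0.21 to 0.22. A 16-exon model at 5494988 on scaffold 10 that shares 9 lengths had 764 and 1108 counts, and its match at 8561049 on scaffold 15 had 477 and 690. The 12-exon models at 6245132 on scaffold 10 and at 7900071 on scaffold 15, which share 8 lengths, had 214 and 230 counts, and 135 and 188.

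**Figure D5:**
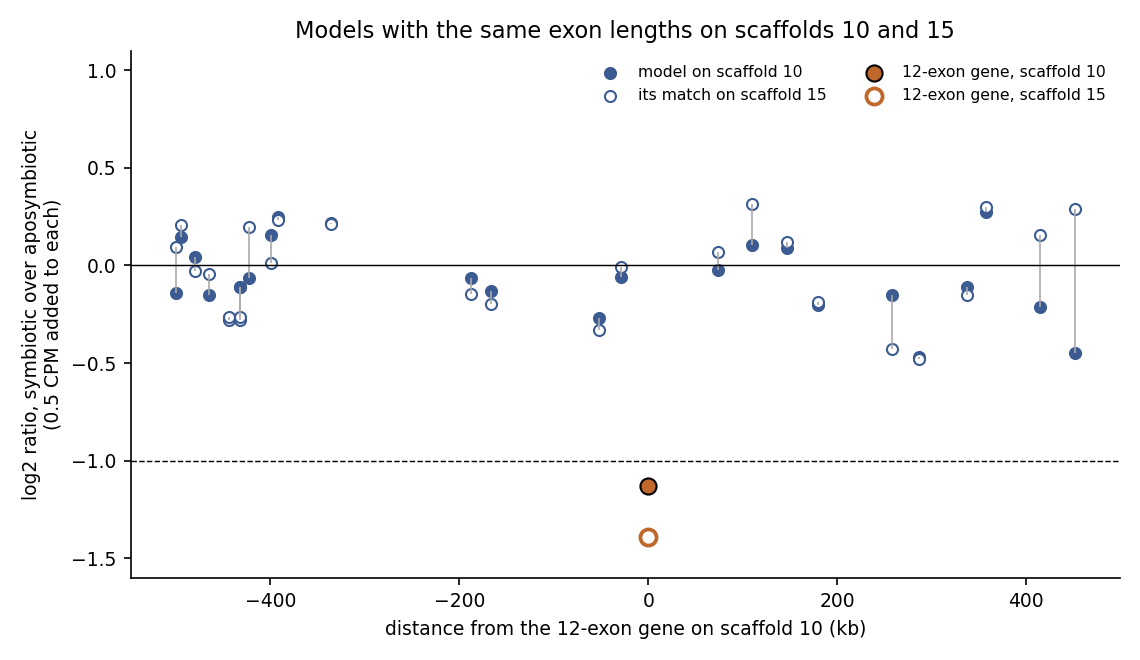
Log2 ratio, symbiotic over aposymbiotic, for models on scaffold 10 (filled) and their matches in exon lengths on scaffold 15 (open), joined by lines, against the distance in kb from the 12-exon gene on scaffold 10. The paired 12-exon genes, at -1.13 and -1.39, lie below the dashed line at -1, and the models around them lie between -0.55 and 0.31.

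A gene of 35 exons and 5910 coding nt at 4485981 to 4507500 of scaffold 10 lies in another matched segment, where 24 of 32 models recur on scaffold 15. It had 159 counts (28.7 CPM) against 68 (9.85 CPM), 2.92-fold lower (2.18 to 3.94), and 2 low-count single-exon models lie within its span. It shares 31 of its 35 exon lengths in order with an 84-exon model at 4343551 on the same scaffold, which had 1401 and 1545 counts at a log2 ratio of -0.18. The 84-exon model at 9571812 on scaffold 15 shares as many and had 1455 and 1569 counts at -0.21. A 78-exon model on scaffold 15, 9495237 to 9563575, shares 27 lengths and was lower as well, with 489 counts against 315, 1.94-fold (1.68 to 2.24).

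For other genes the like-structured model was not halved. The scaffold 3 gene at 5463614 to 5465707 (8 exons, 1296 nt) had 485 counts (87.6 CPM) against 158 (22.9 CPM), 3.83-fold lower (3.19 to 4.61). A scaffold 1 model with all 8 exon lengths the same, 1932988 to 1935046, had 1069 and 1116 counts, a log2 ratio of -0.26, and a scaffold 3 model with 7 the same had 276 and 290. The scaffold 5 gene at 11637191 to 11641037 (3 exons, 1074 nt) had 191 counts against 108, 2.21-fold lower (1.73 to 2.82), and its match at 9012065 had 176 against 135, 1.63-fold lower (1.29 to 2.05).

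On scaffold 4, the 13-exon gene at 7979687 shares 12 lengths with the scaffold 13 gene at 7521840 to 7539495, which had 1062 counts (192 CPM) against 676 (97.9 CPM). That gene was 1.96-fold lower (1.78 to 2.16), just short of the threshold. A 16-exon gene of 11286 nt at 13845188 to 13886508 of scaffold 4 had 459 counts (82.9 CPM) against 242 (35.0 CPM), 2.37-fold lower (2.02 to 2.78). It lies within the span of a 17-exon model of the other strand that also has 11286 coding nt and shares 15 exon lengths, and that model had 913 counts against 731, 1.56-fold lower (1.41 to 1.72). Counting took no account of strand, and read pairs that overlapped exons of both models were counted for neither. A read pair on an exon of 1 model alone was counted for that model, whichever strand it came from.

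On scaffold 13, the 6-exon gene of 528 nt at 9832783 to 9839133 and the 8-exon gene of 858 nt at 9958488 to 9975453 share 5 exon lengths and lie 119 kb apart. They had 207 counts against 87, 2.97-fold lower (2.30 to 3.86), and 194 against 110, 2.20-fold lower (1.73 to 2.81). A scaffold 11 model at 7357968 to 7365271 that shares 5 lengths with each had 73 and 64 counts, 1.42-fold lower (1.0 to 2.02). In all, 11 of the 32 genes had a model of similar exon number that shares at least 3 exon lengths and 50% of them, a rule set after values were seen. By the same rule 18.8% of the 7880 expressed genes of at least 3 exons had one, against 34.4% of the 32. Of the 17 such models at 1 CPM or more outside the set, 16 (94.1%) had a log2 ratio below 0, with a median of -0.49 and a range of -2.16 to 0.16. Over all 10058 models of at least 3 exons at that level, 51.3% were below 0 and the median was -0.01. That count takes in 6 models like the scaffold 16 gene, so the models are not separate cases. It also leaves out like models that differ by more than 3 exons. Among those left out, the 16-exon models given above were at log2 ratios of 0.22 and 0.21. The models of 78 to 84 exons like the 35-exon gene, left out too, ran from -0.95 to 0.03.

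The remaining genes of 4 or more exons were between 2.02-fold and 2.82-fold lower. On scaffold 11, 767958 to 771864 (7 exons, 1584 nt) had 418 counts (75.5 CPM) against 258 (37.4 CPM). On scaffold 9, 700434 to 706311 (5 exons, 1425 nt) had 170 against 84, 2.53-fold lower (1.93 to 3.32). On scaffold 13, 7726820 to 7731505 (7 exons, 2757 nt) had 177 against 79, 2.80-fold lower (2.13 to 3.69). The small 4-exon gene of 444 nt at 12914586 to 12915436 of scaffold 10 had 112 counts against 62, 2.25-fold lower (1.64 to 3.13). On scaffold 12, 12994032 to 12995702 (6 exons, 573 nt) had 97 counts (17.5 CPM) against 43 (6.23 CPM), 2.82-fold lower (1.95 to 4.13), and lies inside an opposite-strand 11-exon model with 182 and 295 counts. On scaffold 6, 2602601 to 2604590 (5 exons, 432 nt) had 143 counts (25.8 CPM) against 73 (10.6 CPM), 2.44-fold lower (1.83 to 3.29). The model before it, at 2591933 to 2593627, also has 5 exons and 450 nt, and had 62 counts against 115, a log2 ratio of 0.55.

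The thresholds cut through a continuous range. Just inside the ratio threshold were the scaffold 12 gene at 14981755 (-1.07), the 11-exon scaffold 1 gene (-1.06), the scaffold 1 genes at 27340076 and 18300721 (both -1.01) and the scaffold 11 gene at 767958 (-1.01). The scaffold 11 gene was 2.02-fold lower (1.73 to 2.37) and the scaffold 1 gene at 18300721, with 20.1 against 9.70 CPM, 2.07-fold lower (1.51 to 2.84). Just outside were a 2-exon gene at 14152405 to 14156418 of scaffold 7 with 190 counts against 117, 2.03-fold lower (1.60 to 2.57), and a 3-exon gene at 19704391 to 19707069 of scaffold 5 with 77 against 47, 2.04-fold lower (1.40 to 3.00). They were followed by a 5-exon gene at 5437656 to 5439270 of scaffold 3 with 312 counts against 197, 1.98-fold lower (1.65 to 2.37), a 5-exon gene at 17285386 to 17286473 of scaffold 10 with 111 against 69, 2.01-fold lower (1.47 to 2.75), and the scaffold 13 gene at 7521840 given above. The pseudocount put genes just past 2-fold outside.

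At the threshold on level, the 5 lowest genes of the set had means of 10.6 CPM (scaffold 1, 23078107), 10.8 CPM (scaffold 6, 1166691), 11 CPM (scaffold 1, 27340076), 11.4 CPM (scaffold 1, 1508895) and 11.9 CPM (scaffold 12, 12994032). The gene at 1508895 had 16.6 against 6.23 CPM, 2.67-fold lower (1.84 to 3.93). The 5 halved genes just below the level had means of 8.70 to 9.73 CPM. They were on scaffold 4 at 2466024 (77 counts against 24), scaffold 11 at 8778112 (78 against 26), scaffold 10 at 4425645 (74 against 32), scaffold 6 at 1165192 (73 against 39) and scaffold 13 at 2780560 (74 against 42). Their folds were 4.00 (2.5 to 6.62), 3.74 (2.37 to 6.08), 2.89 (1.88 to 4.52), 2.34 (1.56 to 3.54) and 2.20 (1.49 to 3.29). The scaffold 6 gene opens the stretch of 3 lower models described above.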

How the data were processed

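RNA of whole polyps was sequenced as read pairs. The labels' protocols describe total RNA from which ribosomal RNA was depleted enzymatically, and the labels' molecule field says polyA RNA instead. STAR 2.7.11b, fastp 1.1.0 and deepTools 3.5.6 are listed per the submitters' processing notes. The deposited table gives raw counts for each gene model. Per the file headers, the authors used featureCounts (Subread 2.1.1) to count read pairs on the exons of a BRAKER3 annotation called conservative, summing over each gene. The recorded command set no strand and did not admit multiply aligned reads or reads over several models. The sources used here name no genome build. Coding lengths are multiples of 3 in 98.4% of models. No identifier was paired with a gene name, and 0 value columns went unmapped to a sample.

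CPM was computed from the deposited counts by column totals (5533508 and 6905650). A gene needed a mean of at least 10 CPM and a log2 ratio, with 0.5 CPM added to each level, at or below -1. Fold values are ratios of CPM without that addition, with exact 95% Clopper-Pearson intervals conditional on the sum of both counts. They cover counting error only, and read pairs without molecular identifiers are not independent molecules. Exon rows that overlap were merged. With 1 library per group no test was made. The genes, classes and lists were chosen with earlier results of these data known. Full values are given for the 10 highest by mean CPM, the 10 lowest by ratio, neighbours within the set, the 5 genes nearest each threshold, and genes with a directly adjacent model alike in exon number and coding length (within 5%); 2 identifiers are printed, for the highest by mean CPM. Alternatives were TMM and RLE factors (edgeR 4.0.16, R 4.3.3), totals without the 100 largest genes, other minimum levels (5, 20 or none), pseudocounts of 5 and 0.05 CPM, and calls that also use the interval. The calculation was checked on simulated counts. Other steps ran in Python 3.11.15 (pandas 2.3.3, numpy 2.4.6, scipy 1.17.1), with plots by matplotlib 3.10.9.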

Additional observations from a re-analysis of the deposited data

How the results depend on the processing

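The choice of 52 genes depended mainly on the minimum level. A minimum of 5 CPM gave 73 of 11463 genes (0.637%), against 52 of 9486 (0.548%). Of the 73, 21 were of a single exon and 8 next to another of the set, against 11 and 4. A minimum of 20 CPM gave 33 of 7159 genes (0.461%), 7 of a single exon. With no minimum beyond 1 count there were 657 of 24744 genes (2.66%), 440 of a single exon and 75 next to another. Their median log2 ratio was -1.19 and their median coding length 720 nt. When the interval bound also had to reach 2-fold, 27 genes were left, 6 of a single exon, with a median of -1.56. TMM and RLE scaling each kept 49 of the 52, leaving out the 100 largest genes kept 51, a pseudocount of 5 CPM kept 37, and 0.05 CPM gave 55. The share of genes with 1 to 3 exons ran from 42.4% to 90.6% over the settings. The background moved with the minimum as well. Single-exon models were 9.85% of all models at 10 CPM or more, 25.6% at 1 CPM or more and 57.0% of all 34573. The rise at lower minima is therefore not read as a trait of the halved genes. Of 260 ratios of single genes under other scalings and pseudocounts, 255 stayed within their counting interval, 5 (all with a pseudocount of 5 CPM) did not, and 0 changed sign. No paired analysis was possible because there was 1 library per group, which also left no replicate to leave out. Depth limits the genes of lowest level, which had 82 counts or more in the aposymbiotic and 14 or more in the symbiotic library.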
